A study of Mus musculus with 3 samples.

Results

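Amino acids cross cell membranes through carrier proteins of several solute carrier (Slc) families. The genes described here are those named Slc1a, Slc3a, Slc6a, Slc7a, Slc36a, Slc38a or Slc43a followed by a number, which make up 58 of the 18194 genes named on the array. Each was represented by its brightest single-gene probe set, meaning the one with the highest mean signal over the 3 arrays. The rule takes whole families by name, so it also takes a few carriers of other solutes, such as the monoamine carriers Slc6a2, Slc6a3 and Slc6a4 and the creatine carrier Slc6a8. Slc38a8 and Slc38a11 were not analysed here.

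The cells were mouse LSK cells, a sorted fraction of blood-forming cells in which haematopoietic stem cells and early progenitors are found. There was 1 array for wild-type cells (WT), 1 for p53 -/- cells (p53 KO) and 1 for cells null for both p53 and Mef (DKO), an ETS transcription factor encoded by Elf4. The sources used here give no age, strain, sex or number of animals behind an array, nor the design of the null alleles. No group had a replicate, so each difference below sets 1 array against another, without error or test.

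Heteromeric carriers pair a light chain of the Slc7a family with a heavy chain of the Slc3a family, which brings the pair to the cell surface. The best known pair is Slc7a5 with Slc3a2 (CD98), which takes up leucine and other large neutral amino acids, often in exchange for glutamine that Slc1a5 has brought in. Leucine, arginine and glutamine signal to the growth-promoting kinase complex mTORC1 at the lysosome, while a shortage of amino acids raises the transcription factor ATF4, which is known to activate several transporter genes. In red cell precursors, glycine taken up from outside is a building block of haem.

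The values are signal intensities as deposited, which already carried a common trimmed mean on all arrays. Each array's own median still differed, at 98.0 on WT, 105 on p53 KO and 129 on DKO. Genes whose signal was at or over the median of all signals, 110.4, on 1 array or more are called measured. By that rule 34 of the 58 transporter genes were measured, or 58.6%, against 69.2% of all named genes. The median was reached by 27 of the 58 on WT, 29 on p53 KO and 33 on DKO, against 59.5%, 61.4% and 65.2% of all named genes. Of the 34, 24 reached it on all arrays, 7 on 2 arrays and 3 on 1. The members just inside the limit were Slc7a9, with a highest signal of 118, and Slc6a8, with 122, and those just outside were Slc7a3 with 106 and Slc7a13 with 95.2. Signals of different probe sets are not on a common scale, so no gene's level is set against another's.

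The arrays differ in more than the label. Elf4, the gene targeted in the DKO cells, had signals of 57.4 on WT, 182 on p53 KO and 151 on DKO, with 74.3, 173 and 129 for another probe set, so it was not lowest on the array labelled DKO. The sources used here do not say which part of Elf4 was deleted. Of the LSK markers, Kit had signals of 4996, 2522 and 4873 and Flt3 of 2387, 1492 and 4728 in the same order, both lowest on p53 KO. Cd34, with 2230, 2442 and 6633, and Slamf1, with 475, 549 and 579, were lowest on WT, and Ly6a was not analysed here. Some markers of blood cell lineages, whose mature cells the LSK gate is meant to leave out, were over the median on every array. Summed levels differed between arrays. Others stayed below it, since of 14 T cell markers 12 were named and only 6 measured. Of 17 erythroid markers, 14 were named and 13 measured, with Hba-a1 below the median throughout. The 14 named erythroid markers summed to 123433 on WT, 138102 on p53 KO and 37889 on DKO. The brightest genes weigh most in such a sum. For p53 KO against WT 7 of the 13 measured erythroid markers were higher and 6 lower. Monocyte markers, 13 of 15 named and all 13 measured, summed to 30509, 78967 and 30378. A different make-up of cells and a different level per cell cannot be told apart in such bulk samples.

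**Figure D1:**
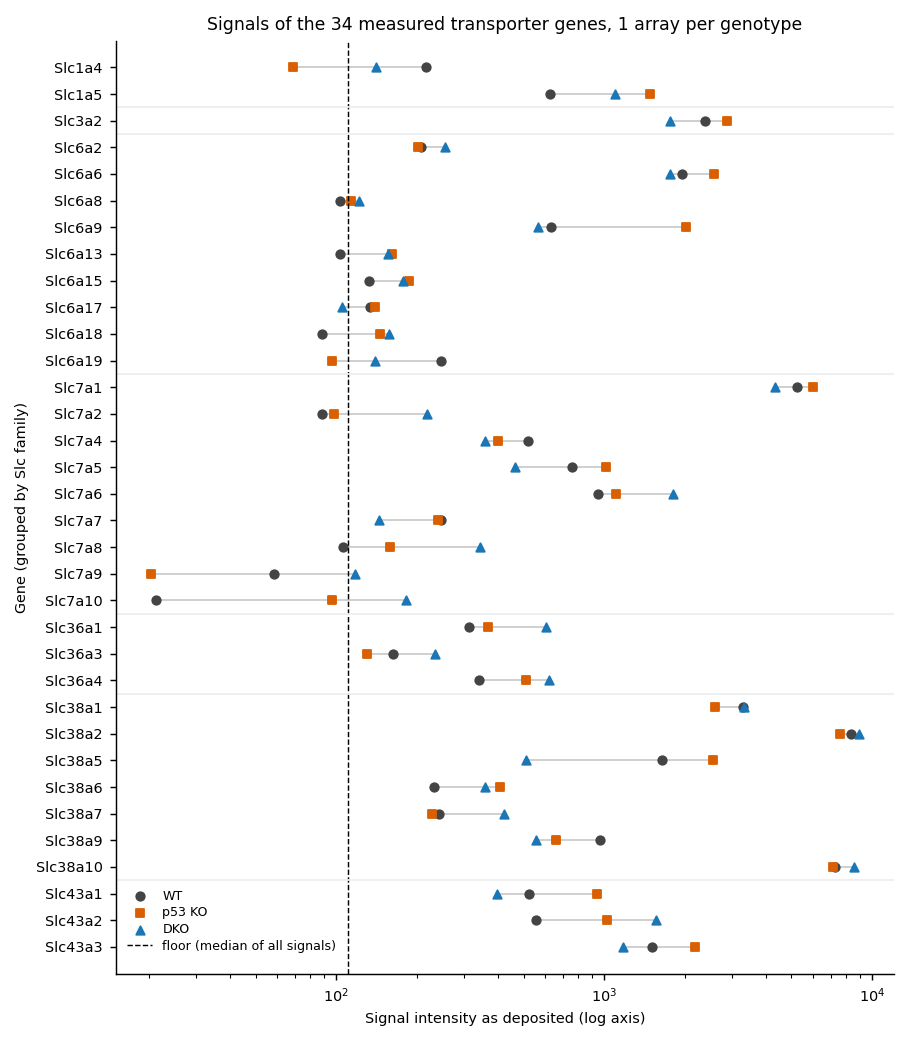
Signal intensity (log axis) of the 34 measured transporter genes on the WT (circle), p53 KO (square) and DKO (triangle) arrays, grouped by family, with the median of all signals dashed. Slc38a5 and Slc6a9 show the widest gaps among genes that were over the median on all arrays, and Slc7a9 and Slc7a10 lie mostly below it.

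Compared with WT, the p53 KO array had higher signals for a glutamine carrier and a glycine carrier. It had a lower signal, below the median, for a carrier of neutral amino acids. The comparison asks what loss of p53 changes in LSK cells. Differences are given on the log2 scale, as the first array named minus the second, after signals below the median were set to it, so a difference with an array below the median is a bound. Of the 34 measured transporters, 2 (Slc1a5 and Slc6a9) were at least 2-fold higher, where 6.51% of all 12597 measured genes were, and 1 (Slc6a19) was at least 2-fold lower, where 3.19% were. Both counts are near the background. The median of the 34 differences was 0.21, against 0.00 over all measured genes. A gene that is measured only through the array where it is high had to differ, so these counts and medians describe and support nothing.

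Compared with WT, the DKO array had higher signals for 2 carriers of large neutral amino acids and a lower signal for a glutamine carrier. Slc7a8 and Slc43a2 were at least 2-fold higher, where 5.22% of all measured genes were, and Slc38a5 was at least 2-fold lower, where 3.10% were. These counts, 2 and 1 of 34, are again near the background, and the median difference was 0.12, against 0.07 over all measured genes, and turned to -0.15 when the floor was the 75th percentile. This comparison uses the same WT array as the one before.

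The DKO array was compared with the p53 KO array to ask what the further loss of Mef changes. Here 4 of 34 were at least 2-fold lower, namely Slc38a5, Slc6a9, Slc43a1 and Slc7a5, where 5.93% of all measured genes were. That is 11.8% of the measured transporters. Slc7a8 was the 1 transporter at least 2-fold higher, where 4.10% of all measured genes were. The median difference was 0.10, against 0.11 over all measured genes, and turned to -0.13 with quantile normalization, -0.17 with cyclic loess and -0.34 when the floor was the 75th percentile. The sides were uneven across all genes too, and they moved with the scaling of the arrays. Of all genes called in this comparison 40.9% were higher, which became 26.5% with cyclic loess. Against WT, the share of 62.8% higher on DKO became 49.4% with quantile normalization and 47.0% with cyclic loess.

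**Figure D2:**
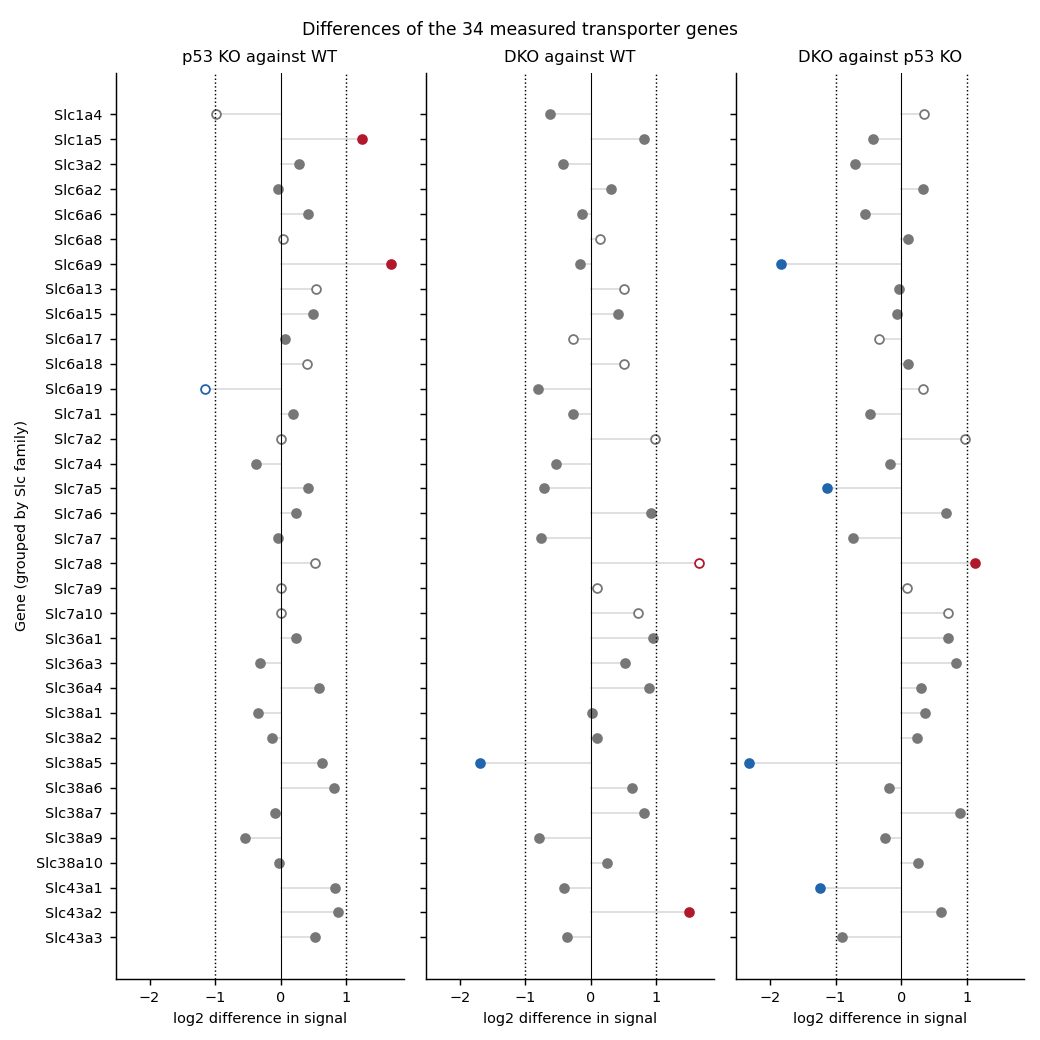
Log2 difference in signal of the 34 measured transporter genes for the 3 comparisons, with dotted lines at 2-fold. Red dots are at least 2-fold higher, blue dots at least 2-fold lower, and open dots rest on an array below the median; Slc38a5 at -2.32 and Slc6a9 at -1.84 lie farthest out for DKO against p53 KO.

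**Figure D3:**
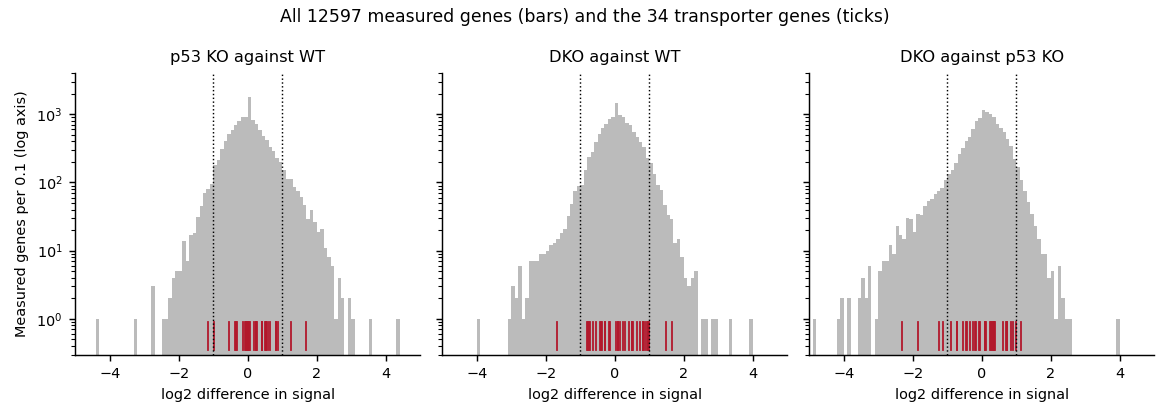
Number of the 12597 measured genes (log axis) by log2 difference in steps of 0.1, for the 3 comparisons, with the 34 transporter genes as red ticks and dotted lines at 2-fold. The ticks lie within the spread of all genes, from -1.15 to 1.68 in the first panel, from -1.69 to 1.65 in the second and from -2.32 to 1.13 in the third.

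The promoters of Slc38a5, Slc43a1 and Slc6a9 are shown because these genes were highest on the p53 KO array and lowest on the DKO array, and that of Slc43a2 because it was lowest on WT and highest on DKO. Each run is the 250 bases before the start of a RefSeq transcript in GRCm38.p6, on the gene's strand, and all 4 are on the plus strand. Capitals mark the E-box CACGTG, a sequence bound by Myc with Max and by several other factors. The windows are chrX:8271131-8271380 for Slc38a5, chr2:84840073-84840322 for Slc43a1, chr4:117835008-117835257 for Slc6a9 and chr11:75531444-75531693 for Slc43a2.
Slc38a5: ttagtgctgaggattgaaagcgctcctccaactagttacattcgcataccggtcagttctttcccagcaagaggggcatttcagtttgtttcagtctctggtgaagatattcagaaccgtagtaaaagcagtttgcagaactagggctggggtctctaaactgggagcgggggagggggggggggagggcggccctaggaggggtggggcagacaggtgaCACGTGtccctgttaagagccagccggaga
Slc43a1: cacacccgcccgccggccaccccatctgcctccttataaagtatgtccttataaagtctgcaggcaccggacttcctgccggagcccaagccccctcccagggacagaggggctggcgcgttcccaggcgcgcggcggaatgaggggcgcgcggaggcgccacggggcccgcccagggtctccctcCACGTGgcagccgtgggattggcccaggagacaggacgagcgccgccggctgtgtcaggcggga
Slc6a9: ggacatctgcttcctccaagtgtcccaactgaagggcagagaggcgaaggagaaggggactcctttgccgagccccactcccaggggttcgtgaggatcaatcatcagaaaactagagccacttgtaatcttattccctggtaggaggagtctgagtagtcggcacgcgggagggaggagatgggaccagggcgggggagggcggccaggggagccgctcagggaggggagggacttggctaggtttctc
Slc43a2: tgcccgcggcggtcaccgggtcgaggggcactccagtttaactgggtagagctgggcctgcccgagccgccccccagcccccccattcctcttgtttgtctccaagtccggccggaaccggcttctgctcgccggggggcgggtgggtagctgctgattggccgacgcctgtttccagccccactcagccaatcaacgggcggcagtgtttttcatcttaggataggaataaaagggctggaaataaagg
Slc38a5 holds the E-box 30 bases before the start and Slc43a1 64 bases before it, counted from the motif's first base. The other 2 windows shown hold none. The remaining windows of Slc6a9 and Slc43a2, and the windows of Slc6a19 and Slc7a8, hold none either.

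Of the 58 transporters, 41 had a promoter in the table, 23 of them measured. An E-box was found in 9 of the 41 and in 4 of the 23 (Slc36a1, Slc38a5, Slc38a7 and Slc43a1), against 6.86% of all 27025 genes with a window of that length. Searched on both strands, the GATA sequence AGATAA was in 3 of the 41, against 11.4% of all genes. The core of the amino acid response element, TGATGNAA, was in 3, against 3.91%, and the CACCC box CCACACCC in 1, against 3.68%. Of the 8 genes at least 2-fold different in any comparison 6 had a window, without Slc1a5 and Slc7a5, and none of the 3 last motifs was in it. These matches describe letters in a window, and no binding was measured.

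Among the heavy chains, Slc3a2, the CD98 chain that carries most Slc7a light chains to the surface, had signals of 2370 on WT, 2882 on p53 KO and 1760 on DKO. It was highest on p53 KO and lowest on DKO, by a log2 difference of -0.71 between them, which is under 2-fold. Slc3a1, the heavy chain of the cystine carrier of kidney and gut, stayed below the median with signals up to 65.9.

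Among the light chains, Slc7a5 (LAT1), the main carrier of leucine into growing cells, had signals of 760 on WT, 1018 on p53 KO and 465 on DKO. The DKO array was thus the lowest and was 2.19-fold below p53 KO, a log2 difference of -1.13. Against WT the differences were 0.42 for p53 KO and -0.71 for DKO. Slc7a5 and its partner Slc3a2 thus had the same order of arrays, each by 1 probe set.

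Slc7a8 (LAT2), a related carrier of large and small neutral amino acids, ran the other way, with signals of 106 on WT, 158 on p53 KO and 345 on DKO. It was below the median on WT, so the difference of DKO from WT was at least 1.65, and that from p53 KO was 1.13. The latter fell under 2-fold with quantile normalization, cyclic loess, a pseudocount of 32 or the floor at the 75th percentile, and under the last of these both differences were 0, since its signal on every array is then at or under the floor. Slc7a6, which exchanges cationic for neutral amino acids, had signals of 949, 1111 and 1799 in the same order, and its other probe set gave 183, 304 and 508. Both probe sets were highest on DKO, with differences from WT of 0.92 and 1.47. Slc7a7, a carrier of the same kind known for its role in macrophages and in lysinuric protein intolerance, had signals of 246, 240 and 145. Its difference for DKO against WT was -0.76 and passed 2-fold with quantile normalization (-1.08) and cyclic loess (-1.06). The same difference was 0.00 with the floor at the 75th percentile and -0.33 with the mean over probe sets. The other probe set of Slc7a7 was below the median on all arrays, with WT lowest.

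Slc7a11, the light chain of the cystine and glutamate exchanger, is a gene that p53 is known to repress in other cells. It did not reach the median on any array, with signals of 22.2 on WT, 91.6 on p53 KO and 30.2 on DKO, or 6.48, 29.3 and 21.6 by its other probe set. Both probe sets were highest on p53 KO, but below the floor at the median, so no difference is given for this gene. Slc7a10, a carrier of small neutral amino acids, was over the median only on DKO, with signals of 21.2, 96.3 and 182 in the order of arrays used above. Its difference from WT was at least 0.72, or at least 2.41 when the floor was the 25th percentile, which the WT signal did not reach either. The kidney carrier Slc7a9 was also over the median only on DKO, at 118. Slc7a3, Slc7a12, Slc7a13, Slc7a14 and Slc7a15 stayed below the median throughout.

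Of the cationic carriers, which take up arginine and lysine without a heavy chain, Slc7a1 had signals of 5250 on WT, 5993 on p53 KO and 4323 on DKO. Its probe sets did not share an order, since the next brightest gave 1948, 1351 and 1633. Slc7a2 was over the median only on DKO, at 217, against 88.5 and 98.4. Slc7a4, a relative with no well-defined substrate, had signals of 521, 403 and 358, with differences from WT of -0.37 and -0.54. Its other probe sets gave another order, lowest on p53 KO, with 242, 163 and 223 and with 165, 51.0 and 134.

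The Slc1a family holds the neutral exchangers Slc1a4 and Slc1a5 and 5 glutamate carriers known mainly from brain and kidney. Slc1a5 (ASCT2), a major route for glutamine, had signals of 626 on WT, 1482 on p53 KO and 1098 on DKO. WT was the lowest, by 1.24 on the log2 scale against p53 KO (2.37-fold) and by 0.81 against DKO. Its other probe set was dimmer, at 134, 186 and 232, with WT again lowest but DKO highest, and its difference for p53 KO against WT was 0.47. Slc1a4, which carries serine and alanine, had signals of 217, 69.1 and 141, and since p53 KO was below the median the difference from WT was at most -0.98. It was -1.65 when the floor was the 25th percentile, and 0.00 when it was the 75th, with the mean over probe sets and with probe sets unique to a transcript. All 5 glutamate carriers (Slc1a1, Slc1a2, Slc1a3, Slc1a6 and Slc1a7) stayed below the median, with signals of 5.23 to 84.2.

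In the Slc6a family of sodium- and chloride-coupled carriers, 9 of 18 genes were measured. Of these, 2 were at least 2-fold different in any of the 3 comparisons. The share of all measured genes different in any comparison was not computed, so this count has no background beside it. Slc6a9 (GlyT1), which supplies glycine and is needed in red cell precursors for haem synthesis, had signals of 631 on WT, 2023 on p53 KO and 564 on DKO. The p53 KO array stood apart from the others, 3.21-fold above WT (log2 difference 1.68) and 3.59-fold above DKO (-1.84). Its other probe set showed the same order, with 207, 516 and 79.2, and differences of 1.32 and of at most -2.23. For DKO against WT the brightest probe set gave -0.16 and the other at most -0.91.

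Slc6a19 (B0AT1), the neutral amino acid carrier of gut and kidney, had signals of 245 on WT, 96.6 on p53 KO and 139 on DKO. Its difference for p53 KO against WT was at most -1.15. It became 0.00 with the floor at the 75th percentile and -0.16 with the mean over probe sets. The other probe set of the gene was below the median on all arrays. Slc6a6, the taurine carrier, had signals of 1943, 2574 and 1764, and its differences lay between -0.55 and 0.41. The other measured genes of the family, Slc6a2, Slc6a8, Slc6a13, Slc6a15, Slc6a17 and Slc6a18, had signals between 88.1 and 255 and differences between -0.34 and 0.54. The monoamine carriers Slc6a3 and Slc6a4 and the glycine carrier Slc6a5 of neurons stayed below the median, as did Slc6a7, Slc6a11, Slc6a12, Slc6a14, Slc6a16 and Slc6a21.

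The Slc38a family moves glutamine and other small neutral amino acids, and 7 of its 9 genes were measured. Slc38a5 (SNAT5), a carrier of glutamine, glycine and serine, had signals of 1646 on WT, 2546 on p53 KO and 509 on DKO. The DKO array was far below the others, with log2 differences of -1.69 from WT and -2.32 from p53 KO. With the floor at the median this was the widest difference of the 34 transporters in the 3 comparisons, and it lay between -2.37 and -2.25 over 7 alternative settings. The gene had 1 probe set.

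The general carriers of the family differed little. Slc38a1 had signals of 3298, 2586 and 3334. Slc38a2, a known ATF4 target, had 8375, 7581 and 8934, and by these brightest probe sets all differences of both genes lay between -0.35 and 0.37. The dimmer probe sets of Slc38a2 were lowest on WT, with differences of 0.30 and 0.42 for DKO against WT. Slc38a10 lay between 7140 and 8573 by its brightest probe set, while its dimmer ones gave differences between -0.67 and 0.47. The glutamine carrier Slc38a7 of lysosomes had signals of 241, 227 and 423, and DKO differed by 0.81 from WT and 0.90 from p53 KO. Slc38a6 had signals of 231, 409 and 359, with differences from WT of 0.82 for p53 KO and 0.63 for DKO. Slc38a3 and Slc38a4, known mainly from liver and brain, stayed below the median.

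Slc38a9, the lysosomal arginine sensor that signals to mTORC1, had signals of 965 on WT, 662 on p53 KO and 557 on DKO, so WT was the highest. All 7 of its probe sets were measured, which allows a closer look than for other members. For p53 KO against WT all 7 differences were below 0, from -0.03 to -0.95. For DKO against WT 6 were below 0, down to -1.20, and 1 was at 0.27. These probe sets share the same arrays and are not replicates.

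The Slc36a genes encode proton-coupled carriers, of which Slc36a1 and Slc36a4 have been linked to lysosomes and mTORC1. Slc36a1 had signals of 314 on WT, 368 on p53 KO and 605 on DKO, Slc36a4 of 340, 509 and 625, and Slc36a3 of 163, 131 and 234. All were highest on DKO, with differences from WT of 0.95, 0.88 and 0.52, none of them 2-fold. Slc36a1, Slc36a2 and Slc36a3 lie side by side on chromosome 11, and Slc36a2 stayed below the median.

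The 3 Slc43a genes were all measured. Slc43a1 (LAT3), a sodium-independent carrier of branched-chain amino acids and phenylalanine, had signals of 526 on WT, 937 on p53 KO and 397 on DKO. The p53 KO array was highest, and DKO was 2.36-fold below it (log2 difference -1.24). Slc43a3, which carries purine bases rather than amino acids, lies close to Slc43a1 on chromosome 2 with 1 protein-coding gene between them, and had the same order, with 1511, 2186 and 1171 and a difference of -0.90. Slc43a2 (LAT4) had a different order, with 558, 1024 and 1562. It was lowest on WT, with differences of 0.88 for p53 KO and 1.49 for DKO, and its next probe set gave 149, 293 and 342, with differences of 0.98 and 1.20.

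**Figure D4:**
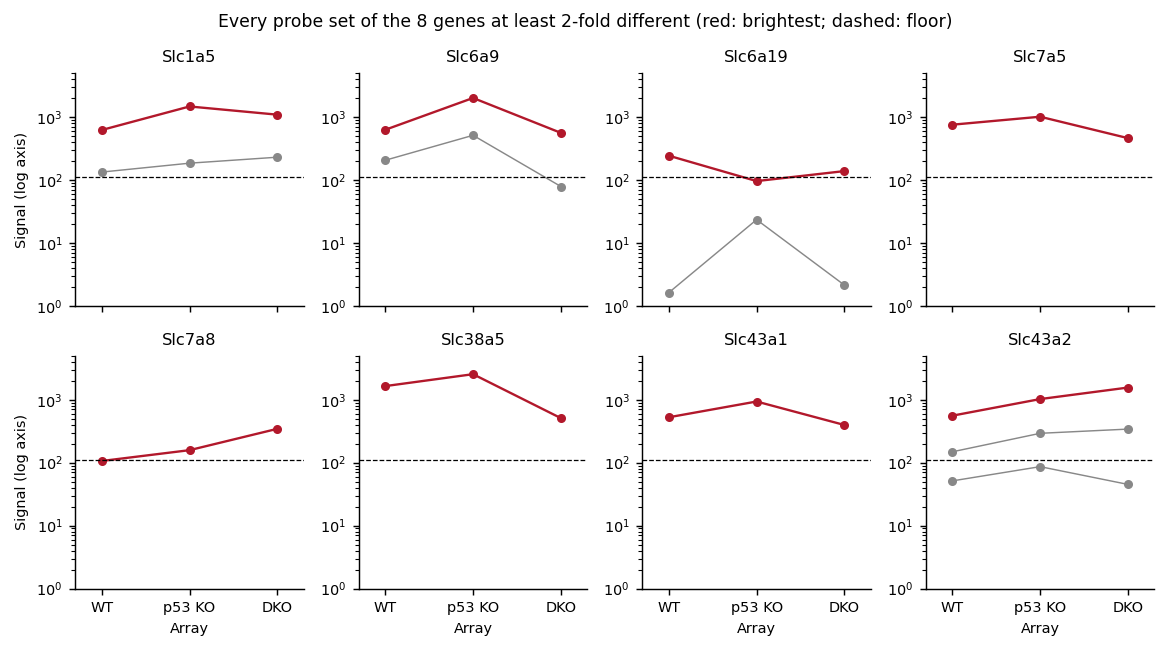
Signal (log axis) of every probe set of the 8 transporter genes at least 2-fold different in any comparison, on the 3 arrays, with the brightest probe set in red and the median of all signals dashed. Both probe sets of Slc6a9 peak on p53 KO, at 2023 and 516, while Slc7a5, Slc7a8, Slc38a5 and Slc43a1 have 1 probe set each.

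Slc6a9, Slc38a5, Slc43a1 and Slc7a5 differed alongside markers of the red cell lineage and of other blood cell lineages. For DKO against p53 KO all 13 measured erythroid markers were lower, 11 of them at least 2-fold, with a median of -2.20, and the haem synthesis gene Alas2 was at -3.39. Of the monocyte markers 11 of 13 were at least 2-fold lower (median -1.55), of the granulocyte markers 7 of 14 (-1.18) and of the B cell markers 9 of 12 (-1.13). Of all measured genes, 5.93% were at least 2-fold lower. Another 4 of the 14 granulocyte markers, namely Elane, Mpo, Ctsg and Prtn3, were above 0, by up to 0.54. Granulocyte markers summed to 141848 on WT, 252355 on p53 KO and 135521 on DKO, and B cell markers to 2870, 9932 and 4294. Single granulocyte markers did not match between WT and DKO, with 6 above and 8 below 0 for DKO against WT (median -0.33). For p53 KO against WT, Alas2 (2.68) and the membrane protein gene Epb42 (2.44) were higher, while the other 11 erythroid markers were between -1.42 and 0.99. The erythroid median was 0.16. In that comparison 10 of 13 monocyte markers (median 1.33), 7 of 14 granulocyte (1.05) and 10 of 12 B cell markers (2.15) were at least 2-fold higher. So were 6 of 13 megakaryocyte (0.88) and 1 of 6 T cell markers (0.14), where 6.51% of all measured genes were. Not every list or comparison ran the same way. For DKO against p53 KO, megakaryocyte markers had a median of -0.23 with 5 above and 8 below 0. None of the 13 was at least 2-fold higher, and 2 were at least 2-fold lower, Ppbp (-4.81) and Itgb3 (-1.15). The 6 measured T cell markers, of 12 named, had a median of 0.44 with 4 above and 2 below 0. Against WT, 10 of 13 erythroid markers were at least 2-fold lower on DKO (median -1.68), where 3.10% of all measured genes were. In that comparison Slc38a5 was at -1.69 but Slc7a5 at -0.71 and Slc43a1 at -0.41. Slc6a9 was at -0.16 by its brightest probe set and at most -0.91 by the other. The part of such cells in the transporter differences was not tested.

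Further carriers of amino acids and peptides from other Slc families were on a list of 12, of which 10 were named and 6 measured. For DKO against p53 KO all 6 were below 0 (median -0.63) and 2 were at least 2-fold lower, where 5.93% of all measured genes were. The 34 transporters did not share this direction, with 18 above and 16 below 0 (median 0.10). Slc15a2, a carrier of small peptides, had signals of 1625 on WT, 2784 on p53 KO and 394 on DKO (-2.82), and Slc16a10, a carrier of aromatic amino acids, had 967, 1385 and 652 (-1.09). For p53 KO against WT all 6 were above 0 (median 0.40), led by the lysosomal Slc15a3 at 1.29. For DKO against WT 2 were above and 4 below 0.

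Genes of the ATF4 response, 22 of 24 measured, did not share a direction. For p53 KO against WT, 2 were at least 2-fold higher and 1 lower, where 6.51% and 3.19% of all measured genes were. For DKO against WT these counts were 3 and 1, where 5.22% and 3.10% were. For DKO against p53 KO they were 5 and 4, where 4.10% and 5.93% were. The medians were 0.04, -0.04 and -0.06 in turn. Atf4 itself had signals of 8005, 10072 and 10627. Asns, the asparagine synthetase that is a classic ATF4 target, had 7258, 3082 and 1363, with differences from WT of -1.24 and -2.41. Ppp1r15a, a stress phosphatase subunit, was high on p53 KO, with 871, 3066 and 723, while Vldlr (1099, 1707 and 3765) was highest on DKO. The transcription factor gene Cebpb was also high on p53 KO, with 155, 354 and 120.

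The mTORC1 and lysosomal sensing list, with 36 of 39 genes named and all 36 measured, was nearly level. For p53 KO against WT no gene was 2-fold different, with a median of -0.05, where 6.51% of all measured genes were higher and 3.19% lower. For DKO against WT 2 were at least 2-fold higher, where 5.22% of all measured genes were. The first was the leucine sensor Sesn1, also a known p53 target, with signals of 4208, 6161 and 10152 (1.27). The other was Castor2, a relative of an arginine sensor, with 203, 287 and 464 (1.19). For DKO against p53 KO the 1 such gene was Kptn (1.06), where 4.10% of all measured genes were at least 2-fold higher. With quantile normalization or cyclic loess these counts were 1 and 0.

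**Figure D5:**
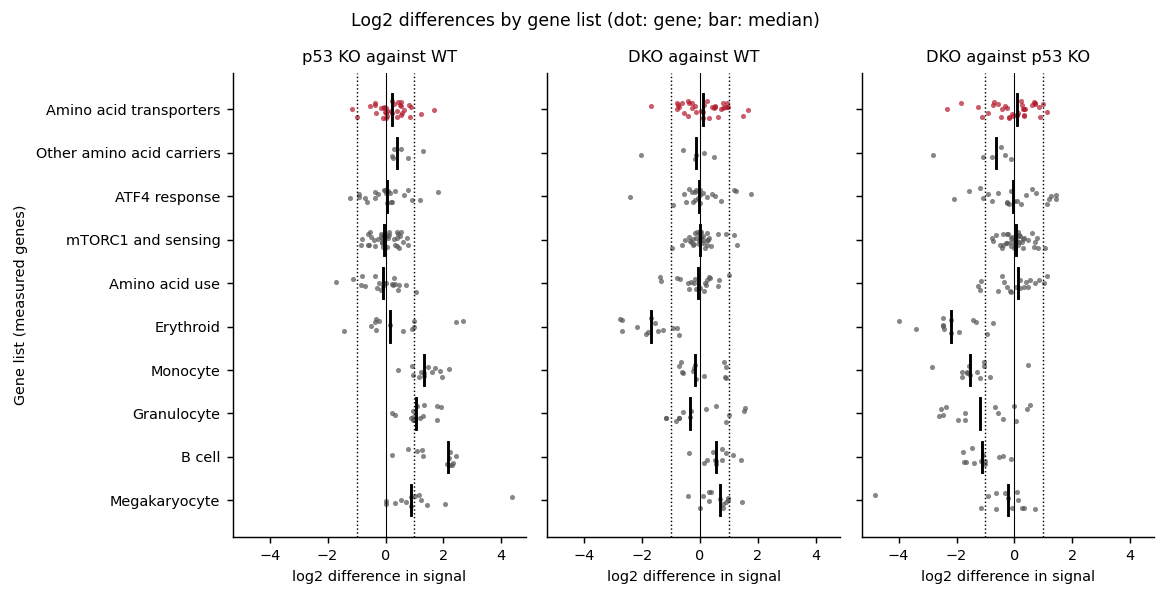
Log2 difference in signal of each measured gene (dots) and the median (bars) for the transporters in red and for the further lists in grey, in the 3 comparisons, with dotted lines at 2-fold. The transporter medians were 0.21, 0.12 and 0.10, while the erythroid list had a median of -1.68 for DKO when set against WT and -2.20 when set against p53 KO.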

How the data were processed

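Expression in LSK cells was measured on 3 Affymetrix arrays, 1 for each genotype. The deposited values are linear signal intensities, made with GCOS and MAS5 per the submitters' processing notes, with no version stated. The 2% trimmed mean was 500.0 throughout, so the authors had scaled the arrays globally. Probe sets were named from the platform annotation, updated through the Entrez ID with the RefSeq table (GRCm38.p6) for 34754 of 34958 probe sets with 1 symbol, while 932 carried several symbols and 9211 none. Signals under the median of all signals (110.4) were set to that floor before log2 was taken, and each gene was represented by its brightest probe set. No test was possible with single arrays, whose number limits the precision.

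Counts and medians were recomputed under quantile normalization, cyclic loess (limma 3.58.1 in R 4.3.3), floors at the 25th and 75th percentiles, a pseudocount of 32, other probe set rules and a 1.5-fold threshold. The script was tested on simulated data. The text names every measured member, with all 3 signals for those at least 2-fold different. It also names up to 4 genes of each further list by the size of their difference, and Atf4, which names its list. Elane, Mpo, Ctsg and Prtn3 are named because they were above 0 for DKO against p53 KO. Members, lists and motifs were chosen with earlier results of these data known. Signals of the p53 gene are not analysed here.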

Additional observations from a re-analysis of the deposited data

How the results depend on the processing

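Of the 11 differences of single transporters that were at least 2-fold, 8 stayed so in all 7 alternative settings that change a difference and none changed sign; the others were those of Slc6a19 and of Slc7a8. The counts are small and moved with the settings, and the cause was not tested unless the setting gives it by construction. For p53 KO against WT, the count at least 2-fold higher was 6 with the floor at the 25th percentile, where 54 transporters are measured, and 6 at 1.5-fold. The count lower was 2 with quantile normalization, with cyclic loess, with a pseudocount of 32 and at 1.5-fold, 3 with the floor at the 25th percentile, and 0 under the 75th percentile floor and with the mean over probe sets. For DKO against WT, the count higher was 8 and 1 with those floors, 4 with the pseudocount and 10 at 1.5-fold, and the count lower was 3 with quantile normalization, 4 with cyclic loess and 6 at 1.5-fold. Its median was 0.24 and -0.15 with the floors at the 25th and 75th percentiles. For DKO against p53 KO, the count higher was 0 with quantile normalization, cyclic loess and the floor at the 75th percentile, 7 with that at the 25th and 8 at 1.5-fold, and the count lower was 7 at 1.5-fold. Its median was -0.13 with quantile normalization, -0.17 with cyclic loess and -0.34 when the floor was the 75th percentile. Medians that moved by at most 0.1 and counts within 1.5-fold are not listed. No paired analysis was possible because each genotype had 1 array. Near the floor, as for Slc6a19, Slc7a8, Slc7a9 and Slc7a10, a difference is limited by signal over background.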

Other observations

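Enzymes that use glutamine, arginine and branched-chain amino acids, on a list of 25 of which 22 were named and 20 measured, had medians of -0.08, -0.06 and 0.12 for p53 KO from WT, DKO from WT and DKO from p53 KO in turn. Of the 20, 1, 1 and 2 were at least 2-fold higher and 2, 2 and 3 at least 2-fold lower, where 6.51%, 5.22% and 4.10% of all measured genes were higher and 3.19%, 3.10% and 5.93% lower. With quantile normalization or cyclic loess 19 were measured, 0, 0 and 1 of them were higher by that measure, and the median for DKO from WT was -0.27 or -0.23. Oat, which makes glutamate and proline precursors from ornithine, had signals of 6400 on WT, 2961 on p53 KO and 2480 on DKO, so WT was the highest. Ggt5, an enzyme that cleaves glutathione outside cells, had signals of 1405, 434 and 874. Gclm, a subunit of the enzyme that starts glutathione synthesis from glutamate and cysteine, was lowest on DKO, with 5511, 4958 and 2154. Arg2, the mitochondrial arginase, had signals of 126, 264 and 32.8.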
